A study of Mus musculus with 6 samples.

Results

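The interferon response genes described here are 48 mouse genes of antiviral defence, named as a set by symbol and found by Ensembl ID among the 54838 gene IDs listed for each library. They comprise RNA sensors, interferon receptors and their kinases, transcription factors of the STAT and IRF families, and effectors. All 48 matched a single ID. The rule that names them uses no measured value, but the set was chosen with earlier results of these data known. Gene expression was measured in bulk RNA from mouse intestinal stem cells, defined by green fluorescence from the Lgr5-eGFP-IRES-CreERT2 allele (strain B6.129P2-Lgr5tm1(cre/ERT2)Cle/J), which all cells of both groups carried. On each of 3 days, strongly fluorescent cells of 4 mice were pooled, and about 200000 of them were embedded in Matrigel at 20000 per 10 µL drop. The medium of both groups contained JAG-1, a Notch ligand peptide, at 1 µM and CHIR99021, a GSK3 inhibitor, at 3 µM. The treated cells received INT-777 at 30 µM from 4 h after embedding (3 libraries), and the control cells received the solvent DMSO (3 libraries). INT-777, a semi-synthetic bile acid, is an agonist of TGR5, the G protein-coupled bile acid receptor that Gpbar1 encodes. Treatment lasted 12 h per the sample labels and 16 h per the design text. The age and sex of the mice are not given in the sources used here.

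Cells sense viral RNA in the cytosol through RIG-I (encoded by Ddx58) and MDA5 (Ifih1), which signal through MAVS to IRF3 and IRF7 and switch on interferon genes. Secreted interferons of type I and type III bind receptors that act through the kinases JAK1 and TYK2. For type I and type III interferon, a complex of STAT2, IRF9 and a further STAT protein then binds interferon-stimulated response elements in the promoters of many genes, among them many of the sensors themselves. Interferon gamma acts through another STAT dimer and through IRF1. In the intestinal epithelium, type III interferon is a well known antiviral signal.

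The sequence by which these genes are commonly recognised was looked up in promoter windows of 250 bases before to 50 bases after the annotated start (RefSeq, GRCm38.p6). Such a window was matched for 40 of the 48 genes; the other 8 were Dhx58, Il10rb, Usp18, Oas2, Zbp1, Ifi27, Parp9 and Parp14. The search was for the core of the response element, GAAA followed by 2 bases of any kind and GAAA again, on both strands, where the reverse strand reads TTTC, 2 bases and TTTC. Neighbouring matches may share a GAAA, and no other motif was searched. The core was found in 17 of the 40 windows (42.5%), against 3.99% of all 27025 genes with a window. The 8 stretches printed here, each given 5′ to 3′ on the strand of its gene with 20 bases on either side of the outermost match, show the element in genes under 1 CPM in these cells and in genes above 10 CPM. They were chosen after the levels were known, and the capitals mark the GAAA or TTTC blocks of the core.
Isg15 (chr4:156200855-156200916, minus strand): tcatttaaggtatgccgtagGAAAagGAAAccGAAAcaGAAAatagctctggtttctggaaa
Ifit1 (chr19:34640765-34640833, plus strand): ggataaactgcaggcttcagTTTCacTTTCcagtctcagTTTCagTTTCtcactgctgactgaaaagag
Ifit3 (chr19:34583353-34583436, plus strand): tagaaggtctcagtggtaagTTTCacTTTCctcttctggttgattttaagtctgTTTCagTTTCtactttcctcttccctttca
Oas3 (chr5:120777705-120777754, minus strand): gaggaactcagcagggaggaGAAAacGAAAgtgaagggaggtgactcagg
Rsad2 (chr12:26456543-26456592, minus strand): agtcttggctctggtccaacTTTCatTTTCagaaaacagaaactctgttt
Gbp7 (chr3:142530263-142530312, plus strand): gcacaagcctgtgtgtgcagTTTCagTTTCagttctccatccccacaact
Bst2 (chr8:71537567-71537622, minus strand): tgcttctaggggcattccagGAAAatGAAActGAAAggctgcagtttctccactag
Stat2 (chr10:128270256-128270305, plus strand): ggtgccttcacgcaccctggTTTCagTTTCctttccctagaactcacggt

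Isg15 carries a run of overlapping cores that begins 78 bases before its start. Bst2 has a shorter run beginning 130 bases before the start. Ifit1 and Ifit3 each hold a pair of separate cores. The single core of Stat2 lies 222 bases before the start. A match of these letters is a description of the sequence and not a binding site shown in these cells. In 4 genes (Ddx58, Ifih1, Ifitm3 and Eif2ak2) every match lay after the annotated start, within the transcript.

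The libraries held 45682340 to 47905087 read pairs assigned to genes, so that a level of 1 CPM (1 read pair per 1e6 assigned, scaled by TMM) stands for 46.1 to 47.6 read pairs. Lgr5 averaged 61.8 ± 7.18 CPM with INT-777 and 69.7 ± 6.57 CPM with DMSO (SD, n = 3 each), and all 10 stem cell markers were detected in every library. Gpbar1, the gene of the receptor, had 4, 1 and 4 read pairs with INT-777 and 4, 0 and 5 with DMSO on days 1, 2 and 3. Days 1 and 2 were nearly alike in all genes, with a biological coefficient of variation of 2.71% between the INT-777 libraries of those days and 1.99% between the DMSO libraries. Against day 1, day 3 differed by 16.9% in INT-777 and 19.4% in DMSO. The replicates are pools of separate days by the labels, so p-values of a fit without a day term measure the spread between days. In a fit with the day as a block they measure the spread, across days, of the difference between INT-777 and DMSO. Because the RNA is bulk, fewer cells of a type and less RNA per cell cannot be told apart.

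The sensing and signalling genes were expressed at moderate levels in both groups, whereas 13 effector genes were low. A mean level of at least 10 CPM was reached by 27 genes, 8 lay between 1 and 10 CPM, and 13 lay under 1 CPM. The 27 include every receptor and kinase, Ddx58, Ifih1, Mavs, Trim25 and all the transcription factors except Irf7. The 13 include Isg15, Usp18, Oas2, Oas3, Ifit1, Ifit3, Ifitm1, Rsad2, Zbp1 and Xaf1 and all 3 guanylate-binding proteins. Per length, on the FPKM scale, Ifitm2 was the most abundant at 70.1 FPKM in INT-777 and 74.1 FPKM in DMSO, although 40.9% of its exon length is shared with the overlapping gene Gm45717. It was followed by the interferon gamma receptor chain Ifngr1 at 48.7 FPKM in INT-777 and 51.1 FPKM in DMSO. Ifitm3 reached 25.7 FPKM in INT-777 and 31.2 FPKM in DMSO, and Jak1 reached 24.4 FPKM in INT-777 and 26.3 FPKM in DMSO.

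**Figure D1:**
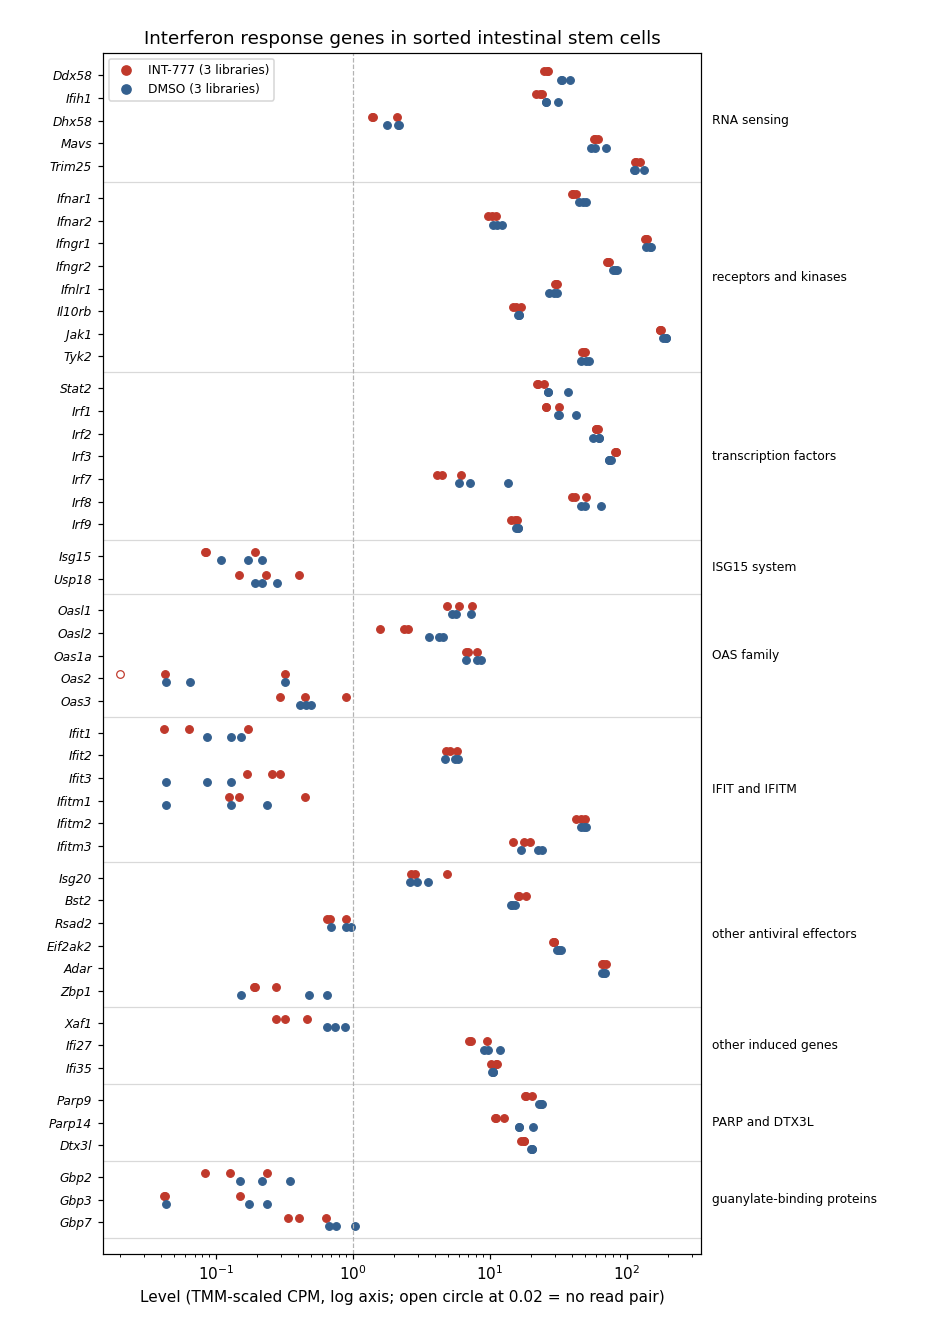
Level of each of the 48 genes in each library, in TMM-scaled CPM on a log axis, with INT-777 libraries (red) drawn above DMSO libraries (blue) and genes grouped by role; the dashed line is 1 CPM. The receptors, kinases and most transcription factors lie near or above 10 CPM, and the 13 genes under 1 CPM are mostly induced effectors.

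Genes that hold the response element were found at both ends of this range. Of the 17 with an element, 8 lay under 1 CPM, and of the 23 with a window and no element, 2 did. The median level was 7.51 CPM with the element and 29.9 CPM without it, as a description over genes of differing length. Shortening the window to the last 150 bases before the start left 11 genes with an element (1.59% of all windows of that length hold one).

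**Figure D2:**
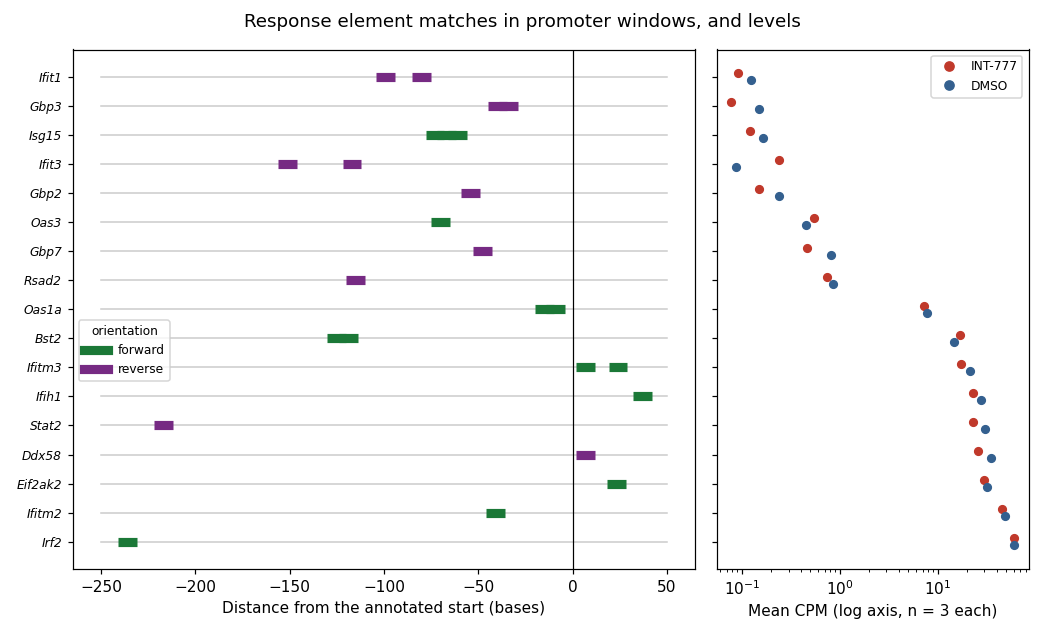
Left, position of each response element core relative to the annotated start in the 17 genes that hold one, in bases, with green for GAAA and purple for TTTC on the gene's strand; right, mean CPM of the same genes on a log axis (INT-777 red, DMSO blue, n = 3 each). Genes are ordered by level, and the 8 at the top lie under 1 CPM.

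With INT-777 most genes of this response lay slightly below their DMSO levels. Of the 42 genes with enough counts to be tested, 34 had a negative and 8 a positive log2 fold change of INT-777 over DMSO, with a median of −0.12 and a range of −1.10 to 0.26. The positive values of Usp18, Oas3 and Isg20 became −0.29, −0.31 and −0.15 without the INT-777 library of day 3. Over all 15998 tested genes the median was 0.00, and 49.3% were negative, against 81.0% of these genes. Of the 42, 1 gene passed the test, Ddx58, which was lower (edgeR quasi-likelihood test, Benjamini-Hochberg adjusted p under 0.05 over all tested genes), and 0 were higher; of all tested genes 0.763% were called lower and 0.688% higher. At an unadjusted p under 0.05 there were 16 of the 42, and 2621 of all 15998 tested genes. DESeq2 called 5 of the 42 lower and 0 higher, and 429 lower and 369 higher of all 15998. With the day of the sort as a block, which pairs the INT-777 and DMSO libraries of a day, 16 of the 42 (38.1%) were lower and 1 was higher, against 10.3% lower and 11.1% higher among all tested genes. The 16 were Ddx58, Ifih1, Ifnar1, Ifngr2, Stat2, Irf1, Irf7, Irf8, Oasl2, Ifitm3, Xaf1, Ifi27, Parp9, Parp14, Dtx3l and Gbp7, and the 1 was Irf3.

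All 3 INT-777 libraries lay below all 3 DMSO libraries in 13 of the 42 genes and above them in 2, where 11.0% of all tested genes lay below and 13.6% above. The per-day medians of the log2 ratio were −0.14, −0.15 and −0.12 on days 1, 2 and 3, with 32, 34 and 27 of the 42 genes negative. The number of calls depended on the design, with fold changes close to one another and standard errors that were mostly smaller with the block. Of the 16 genes called lower with the block, 13 have a promoter window, and 5 of those 13 hold the response element. Of all 40 genes of the set with a window, 17 (42.5%) hold it, and a link between element and call was not tested.

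**Figure D3:**
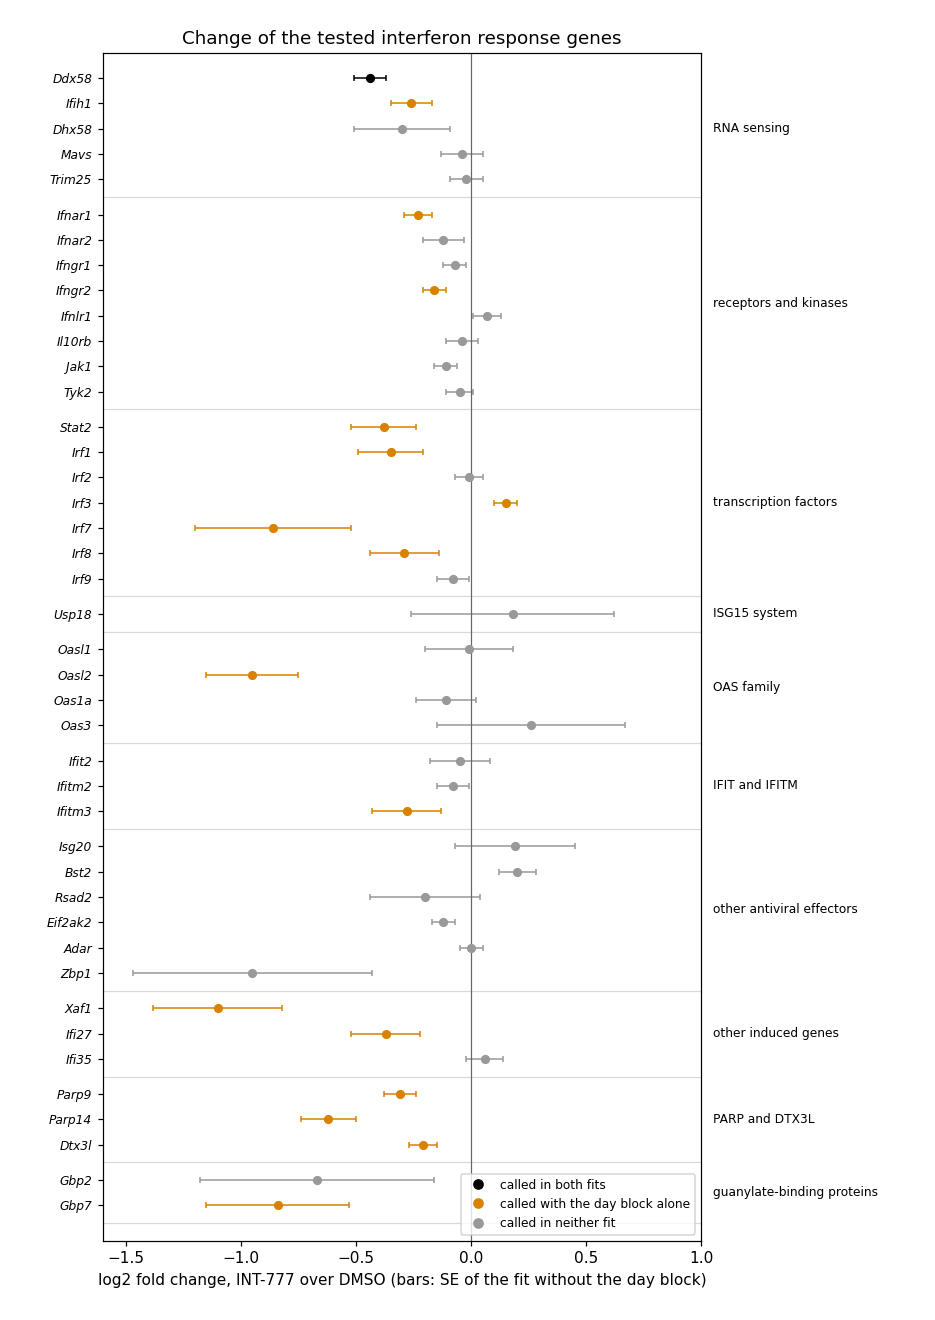
Log2 fold change of INT-777 over DMSO for the 42 tested genes, grouped by role, with bars of 1 SE of the fit without the day block; black marks the gene called in both fits, orange those called with the day block alone and grey those called in neither. Most points lie left of 0, between 0 and −0.5, and the 4 widest bars belong to genes under 1 CPM (Zbp1, Gbp2, Usp18 and Oas3).

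Among the RNA sensing genes, Ddx58 was called lower with INT-777 in both fits and Ifih1 with the day block alone. Dhx58, Mavs and Trim25 were called in neither. Ddx58 (chr4:40203773-40239828, GRCm38) encodes RIG-I, the helicase that detects RNA with a triphosphate at its end. It had 26.5, 24.8 and 26.3 CPM in the INT-777 libraries of days 1, 2 and 3, against 33.5, 33.1 and 38.5 CPM in the DMSO libraries. The groups did not overlap, and the INT-777 level was 0.739 of the DMSO level (log2 −0.44 ± 0.07 SE, edgeR adjusted p = 0.0398; with the day block −0.43 ± 0.06, adjusted p = 0.000102). The call of Ddx58 without the block was lost (adjusted p between 0.0704 and 0.203) on leaving out any 1 library other than DMSO of day 3.

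Ifih1, which encodes MDA5, the sensor of long double-stranded RNA, had 21.8, 23.4 and 24.1 CPM with INT-777 and 25.7, 25.9 and 31.5 CPM with DMSO. Its groups did not overlap, and the highest value was DMSO of day 3. The log2 fold change was −0.26 ± 0.09 (edgeR adjusted p = 0.227; with the day block 0.00809). Dhx58, which encodes the regulatory helicase LGP2, was low, at 1.39 to 2.12 CPM with INT-777 and 1.77 to 2.17 CPM with DMSO, and its groups overlapped (log2 −0.30 ± 0.21, edgeR adjusted p = 0.525). Mavs, the mitochondrial adaptor of both sensors, differed by −0.04 ± 0.09, and Trim25, a ubiquitin ligase that activates RIG-I, by −0.02 ± 0.07 on the log2 scale.

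The receptor and kinase genes were among the most stable of the set. Ifnar1, a chain of the type I interferon receptor, had 40.3, 39.9 and 42.5 CPM with INT-777 and 45.1, 47.8 and 50.8 CPM with DMSO (log2 −0.23 ± 0.06, edgeR adjusted p = 0.139; with the day block 0.00466). Ifngr2, a chain of the interferon gamma receptor, had 71.8, 73.3 and 74.3 CPM with INT-777 and 79.3, 81.6 and 84.6 CPM with DMSO (log2 −0.16 ± 0.05, edgeR adjusted p = 0.169; with the day block 0.0139). In both genes every INT-777 library lay below every DMSO library, by a small amount. The partner chains, Ifnar2 and Ifngr1, had log2 fold changes of −0.12 ± 0.09 and −0.07 ± 0.05. Ifnlr1, the chain specific to type III interferon, had 30.2 to 31.2 CPM with INT-777 and 27.1 to 31.0 CPM with DMSO (log2 0.07 ± 0.06), and was the one gene of the 8 with a positive value. Its partner Il10rb had −0.04 ± 0.07. Of the kinases, Jak1 had 174 to 179 CPM with INT-777 and 183 to 195 CPM with DMSO, without overlap (log2 −0.11 ± 0.05, edgeR adjusted p = 0.317; with the day block 0.0644), and Tyk2 had −0.05 ± 0.06.

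Of the 7 transcription factor genes, 4 (Stat2, Irf1, Irf7 and Irf8) were lower with INT-777 when the day was a block. That was 57.1% of the group, against 10.3% of all tested genes. Irf3 was higher with the block, as were 11.1% of all tested genes. The same 4 also differed between days, as did 20.5% of all tested genes. Without the block none of the 7 was called by edgeR. An unadjusted p under 0.05 was reached by 4 of the 7, and by 2621 of all 15998 tested genes. Stat2, a subunit of the complex that binds response elements, had 22.5, 22.2 and 24.7 CPM with INT-777 and 26.6, 26.8 and 37.3 CPM with DMSO (log2 −0.38 ± 0.14, edgeR adjusted p = 0.236; with the day block 0.00158). The 2 groups did not overlap, and DMSO of day 3 stood well above the rest. Irf9, which gives that complex its DNA binding, differed by −0.08 ± 0.07.

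Irf7, the factor that amplifies type I interferon and is itself induced by it, had 4.13, 4.45 and 6.16 CPM with INT-777 and 5.97, 7.16 and 13.6 CPM with DMSO. On each day INT-777 was the lower of the pair, although the INT-777 value of day 3 lay above the DMSO value of day 1. The log2 fold change was −0.86 ± 0.34 without the block (edgeR adjusted p = 0.289) and −0.81 ± 0.12 with it (adjusted p = 0.000172). Irf1, an activator of interferon gamma targets, had 25.8, 25.6 and 32.1 CPM with INT-777 and 32.3, 31.5 and 42.5 CPM with DMSO (log2 −0.35 ± 0.14, edgeR adjusted p = 0.290; with the day block 0.000408). As for Irf7, its day 3 value was the highest of each group, so that the groups overlapped and the pairs did not.

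Irf8, a factor best known from myeloid and B cells, had 39.8, 41.8 and 50.1 CPM with INT-777 and 49.3, 46.5 and 65.1 CPM with DMSO (log2 −0.29 ± 0.15, edgeR adjusted p = 0.383; with the day block 0.00153). The leukocyte gene Ptprc (CD45) was at 0.0636, 0.0840 and 1.31 CPM in the INT-777 libraries and at 0, 0 and 1.51 CPM in the DMSO libraries. Of 32 immune cell markers, 13, 15 and 32 were detected in the INT-777 libraries and 15, 17 and 30 in the DMSO libraries, and their part in the Irf8 level was not tested. Irf3, the factor that RNA sensing activates by phosphorylation, was the gene that went the other way. It had 82.5, 83.2 and 83.8 CPM with INT-777 and 74.6, 73.7 and 77.1 CPM with DMSO, without overlap (log2 0.15 ± 0.05, edgeR adjusted p = 0.181; with the day block 0.0235). Irf2, an antagonist of IRF1, differed by −0.01 ± 0.06.

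**Figure D4:**
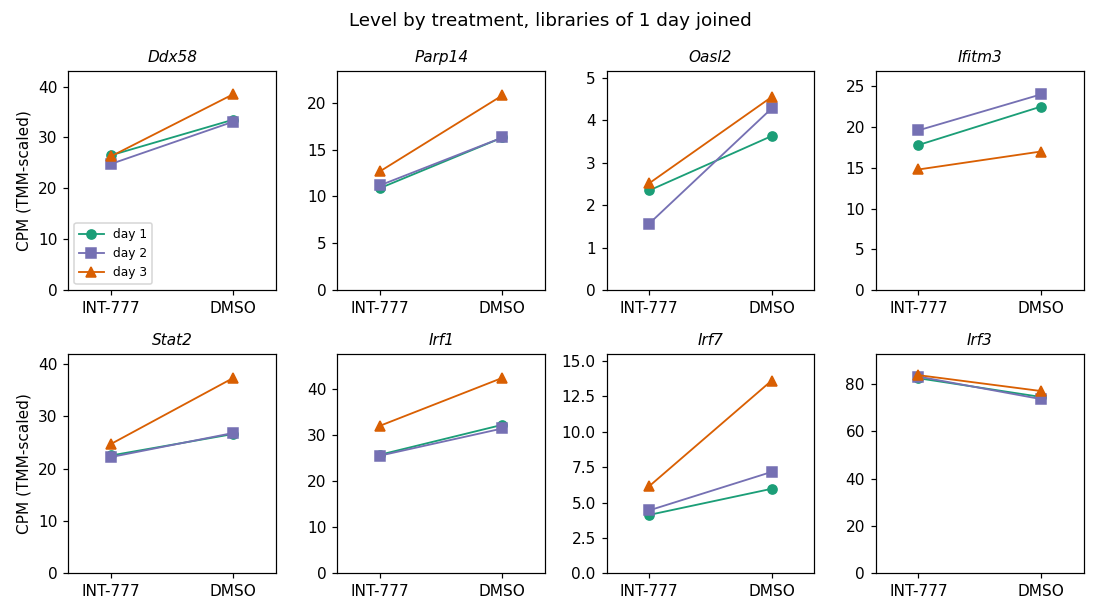
Level in TMM-scaled CPM (linear axes from 0) of 8 genes with INT-777 and with DMSO, each line joining the libraries of 1 day (day 1 circles, day 2 squares, day 3 triangles). In 7 of the genes every line is higher at DMSO and in Irf3 every line is lower there; day 3 stands apart in Stat2, Irf1 and Irf7, where it is highest, and in Ifitm3, where it is lowest.

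The PARP and DTX3L genes were the one role group in which every gene was lower without overlap between groups. Parp14, a mono-ADP-ribosyltransferase (chr16:35832874-35871544), had 10.9, 11.2 and 12.7 CPM with INT-777 and 16.3, 16.3 and 20.8 CPM with DMSO (log2 −0.62 ± 0.12, edgeR adjusted p = 0.0570; with the day block 2.8e-05). Parp9 had 18.5, 18.2 and 20.2 CPM with INT-777 and 23.5, 23.0 and 24.0 CPM with DMSO (log2 −0.31 ± 0.07, edgeR adjusted p = 0.0770; with the day block 0.00224). Dtx3l, a ubiquitin ligase whose product binds PARP9, had 17.9, 17.8 and 16.8 CPM with INT-777 and 20.0, 20.3 and 20.3 CPM with DMSO (log2 −0.21 ± 0.06, edgeR adjusted p = 0.167; with the day block 0.0336). The 3 genes lie near one another on chromosome 16. Parp9 and Dtx3l overlap on opposite strands over 9.4% and 8.0% of their exon lengths, and reads there cannot be assigned without strand.

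In the OAS family, whose enzymes make 2′-5′ oligoadenylates that activate RNase L, a single gene was called with the block. Oasl2 had 2.35, 1.57 and 2.52 CPM with INT-777 and 3.63, 4.28 and 4.55 CPM with DMSO (log2 −0.95 ± 0.20, edgeR adjusted p = 0.0782; with the day block 0.000501). The groups did not overlap, and the INT-777 level was 0.518 of the DMSO level. Its neighbour Oasl1 had 4.88, 5.96 and 7.43 CPM with INT-777 and 5.32, 5.69 and 7.35 CPM with DMSO (log2 −0.01 ± 0.19). The groups of Oasl1 overlapped almost fully, and day 3 was highest in each. Oas1a, one of a cluster of close copies among which reads may be split, differed by −0.11 ± 0.13. Oas3 lay under 1 CPM (log2 0.26 ± 0.41), and Oas2 was not tested, with 17 read pairs over the INT-777 libraries and 20 over the DMSO libraries.

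Of the IFIT and IFITM genes, Ifitm3, which blocks viral entry from endosomes, had 17.8, 19.6 and 14.8 CPM with INT-777 and 22.5, 24.0 and 17.0 CPM with DMSO (log2 −0.28 ± 0.15, edgeR adjusted p = 0.406; with the day block 0.00645). Day 3 was the lowest of each group, and INT-777 was the lower of every pair. Ifitm2 differed by −0.08 ± 0.07 and Ifit2, whose product binds RNA and slows translation, by −0.05 ± 0.13. The other 3 genes were too low to be tested. Ifit1 had 13 read pairs over the INT-777 libraries and 17 over the DMSO libraries. Ifitm1 had 34 read pairs with INT-777 and 19 with DMSO. Ifit3, which has a close copy in Ifit3b, had 34 read pairs with INT-777 and 12 with DMSO, at 0.170, 0.294 and 0.257 CPM in the INT-777 libraries and 0.0869, 0.130 and 0.0431 CPM in the DMSO libraries. The Ifit3 groups did not overlap, at a level of 2 to 14 read pairs per library.

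The 2 genes of the ISG15 system were near the limit of detection. Isg15, a ubiquitin-like protein and one of the strongest interferon targets in most cells, had 17 read pairs over the INT-777 libraries and 23 over the DMSO libraries, with 4 to 10 in any library, and was not tested. Usp18, the protease that removes ISG15, had 0.147 to 0.407 CPM with INT-777 and 0.195 to 0.280 CPM with DMSO (log2 0.18 ± 0.44).

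None of the 6 other antiviral effectors was called by edgeR with or without the block. Without the block 1 of the 6 had an unadjusted p under 0.05, against 2621 of all 15998 tested genes. Bst2, or tetherin, which retains budding virus at the cell surface, had 16.0, 18.4 and 16.3 CPM with INT-777 and 15.3, 14.5 and 14.4 CPM with DMSO. Its groups did not overlap, and INT-777 was higher (log2 0.20 ± 0.08, edgeR adjusted p = 0.264; with the day block 0.0682). Eif2ak2, the RNA-dependent kinase PKR, had 28.8 to 29.7 CPM with INT-777 and 30.8 to 33.0 CPM with DMSO, again without overlap (log2 −0.12 ± 0.05, edgeR adjusted p = 0.320; with the day block 0.152). The RNA editing enzyme gene Adar, 16.8% of whose exon length overlaps Chrnb2, had 66.3 to 70.1 CPM with INT-777 and 66.0 to 69.0 CPM with DMSO (log2 0.00 ± 0.05). Isg20, an RNA exonuclease, differed by 0.19 ± 0.26 and Rsad2 (viperin) by −0.20 ± 0.24. Zbp1, a sensor of Z-form nucleic acid, had 0.276, 0.189 and 0.193 CPM with INT-777 and 0.478, 0.152 and 0.647 CPM with DMSO, and the wide spread of the DMSO libraries left its fold change uncertain (log2 −0.95 ± 0.52, edgeR adjusted p = 0.407; with the day block 0.145).

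Xaf1, a pro-apoptotic interferon target, had the lowest log2 fold change of the 42, at a low level. It had 0.276, 0.462 and 0.321 CPM with INT-777 and 0.738, 0.651 and 0.884 CPM with DMSO, without overlap (log2 −1.10 ± 0.28, edgeR adjusted p = 0.123; with the day block 0.0184). Ifi27 had 7.08, 7.30 and 9.52 CPM with INT-777 and 9.77, 9.16 and 11.9 CPM with DMSO (log2 −0.37 ± 0.15, edgeR adjusted p = 0.288; with the day block 0.00564). INT-777 was the lower of every pair, and day 3 was the highest of each group. Ifi35 differed by 0.06 ± 0.08.

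The guanylate-binding proteins, GTPases that attack the membranes of intracellular pathogens, were low in both groups, and reads may be split among their close copies. Gbp7 had 0.636, 0.336 and 0.407 CPM with INT-777 and 1.04, 0.760 and 0.668 CPM with DMSO, without overlap (log2 −0.84 ± 0.31, edgeR adjusted p = 0.248; with the day block 0.0365). Gbp2 had 0.127, 0.0840 and 0.235 CPM with INT-777 and 0.217, 0.347 and 0.151 CPM with DMSO, with overlap (log2 −0.67 ± 0.51, edgeR adjusted p = 0.553; with the day block 0.414). Gbp3 was not tested, with 11 read pairs over the INT-777 libraries and 21 over the DMSO libraries.

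Several of these genes differed between days as well. In a fit of day and treatment together, 11 of the 42 (26.2%) differed between days (edgeR F-test of the day terms, adjusted p under 0.05), against 20.5% of all tested genes. They were Mavs, Trim25, Stat2, Irf1, Irf7, Irf8, Oasl1, Ifitm3, Isg20, Ifi27 and Parp14. The mean level of Irf7 on day 3 was 1.82 times that of days 1 and 2 (edgeR adjusted p for days 0.00037), and Irf1 and Irf8 each stood at 1.30 times (adjusted p for days 0.000765 and 0.000582). Ifitm3 was the one gene of the 11 that was lower on day 3, at 0.760 times (adjusted p for days 0.00183). Of the 16 genes called lower with the block, 7 also differed between days (Stat2, Irf1, Irf7, Irf8, Ifitm3, Ifi27 and Parp14). The same overlap over all tested genes was not counted, so the 7 cannot be read as a trait of this set.

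**Figure D5:**
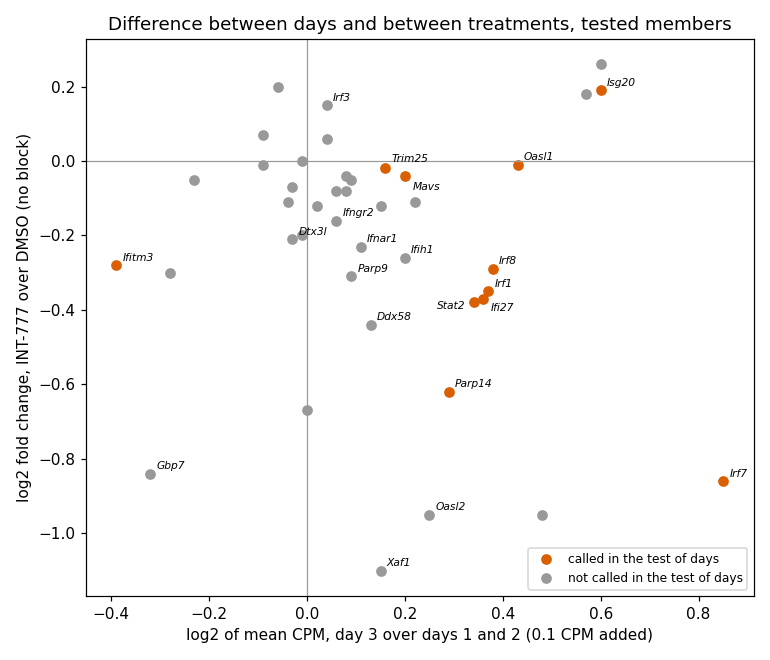
Each of the 42 tested genes by its difference between days (x axis, log2 of mean CPM on day 3 over days 1 and 2, with 0.1 CPM added) and between treatments (y axis, log2 fold change of INT-777 over DMSO without the block); orange marks genes called in the test of days. Irf7 lies farthest right and low, and Ifitm3 is the orange gene on the left.

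Markers of other cell types moved with the day and, for some types, with the treatment. The summed level of 32 immune cell markers was 10.0, 11.3 and 22.8 CPM in the INT-777 libraries of days 1, 2 and 3 and 12.1, 13.3 and 22.3 CPM in the DMSO libraries. Cd14 and Cd68 made up most of the sums of days 1 and 2. Cd14 had 5.24, 5.65 and 5.88 CPM with INT-777 and 7.30, 7.62 and 5.45 CPM with DMSO. Cd68 had 3.03, 3.61 and 3.64 CPM with INT-777 and 2.93, 3.41 and 2.89 CPM with DMSO. Of the 32 markers, 13, 15 and 32 were detected with INT-777 and 15, 17 and 30 with DMSO. The immune marker sums were highest on day 3 in each group, and their ranges in the 2 groups overlap. The 8 goblet markers summed to 3000, 2900 and 12500 CPM with INT-777 and 5660, 5560 and 28200 CPM with DMSO, lower with INT-777 on every day. Fcgbp made up most of each goblet sum, and all 8 goblet markers had a negative log2 fold change. The 8 enterocyte markers summed to 540, 538 and 454 CPM with INT-777 and 1010, 1040 and 733 CPM with DMSO, without overlap. Anpep set the direction of that sum, at 265, 260 and 165 CPM with INT-777 and 804, 831 and 549 CPM with DMSO. The other 7 summed to 274, 278 and 289 CPM with INT-777 and 207, 204 and 184 CPM with DMSO, higher with INT-777. Alpi and Fabp1 were higher in every INT-777 library than in any DMSO library. Sis and Apoa1 went the other way, lower with INT-777 on every day (log2 −0.41 and −0.42 with the day block, edgeR adjusted p = 0.000567 and 0.0134). With the block 3 enterocyte markers were lower (42.9% of those tested, against 10.3% of all tested genes) and 1 higher (14.3%, against 11.1%). The 8 enteroendocrine markers summed to 595, 608 and 2160 CPM with INT-777 and 628, 639 and 2750 CPM with DMSO. The 6 Paneth markers summed to 2250 to 3540 CPM with INT-777 and 3420 to 3880 CPM with DMSO. The 6 tuft markers, of which Il25 was at 0 throughout, summed to 28.3 to 38.0 CPM with INT-777 and 24.7 to 33.8 CPM with DMSO. The 10 stem cell markers summed to 2380, 2340 and 1890 CPM with INT-777 and 2730, 2710 and 2320 CPM with DMSO. Slc12a2 made up most of each sum, at 1400, 1380 and 997 CPM with INT-777 and 1620, 1580 and 1250 CPM with DMSO. With the day block 7 of the 10 were lower (70%, against 10.3% of all tested genes). Ascl2 and Cdk6 were higher with the block (20%, against 11.1%). RNA integrity numbers were 9.2, 9.2 and 9.0 with INT-777 and 9.3, 9.6 and 8.7 with DMSO. The part of cell composition, day and RNA quality in the differences of the interferon response genes was not tested.

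Leaving out both libraries of day 3 gave the calls of the 2 days that were nearly alike. The p-values without the block then rest on the small spread between those 2 days. Without the block 18 of the 42 genes were then lower and 2 higher (Irf3 and Bst2), against 12.9% lower and 13.9% higher among the 16002 genes tested on those 4 libraries. Of the 18, 15 are also among the 16 called with the day block on all 6 libraries; Ifngr1, Jak1 and Ifitm2 are added and Xaf1 is missing. Ddx58 then had a log2 fold change of −0.38 (edgeR adjusted p = 7.01e-07) and Parp14 of −0.57 (adjusted p = 8.18e-08). Without both libraries of day 1, or of day 2, edgeR called none of the 44 genes then tested without the block, with 8 of the 44 at an unadjusted p under 0.05 in either case. Of all genes tested, 1189 of 16245 had such a p without day 1 and 872 of 16224 without day 2.

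The wider response was read from 4 further gene lists. The interferons themselves were at the limit of detection: of 11 ligand genes, 7, among them Ifnb1, Ifna1, Ifna2, Ifnl2 and Ifnl3, had no read pair in any library, which at 3 read pairs per library allows a level of up to 0.0630 to 0.0651 CPM. Ifnk had 13 read pairs over the 6 libraries, Ifnz 3 and Ifne 1. Ifng had 3, all in a single library, DMSO of day 3.

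A list of 52 other interferon-stimulated genes lay in the same direction as the 48. It was chosen with earlier results of these data known and measured in the same libraries, so it gives no independent support. Of its 42 tested genes, 34 were negative and 8 positive, with a median log2 fold change of −0.24. In the fit without the block 2 were called lower (4.76%, against 0.763% of all tested genes) and 0 higher. The day block gave 24 lower (57.1%, against 10.3% of all tested genes) and 0 higher (against 11.1%). Mov10, an RNA helicase that restricts retroelements, had 15.6, 14.4 and 18.2 CPM with INT-777 and 27.6, 27.0 and 28.7 CPM with DMSO (log2 −0.79 ± 0.09, edgeR adjusted p = 0.0133). The cytidine deaminase gene Apobec3 had 53.1, 54.1 and 52.7 CPM with INT-777 and 68.9, 69.1 and 64.9 CPM with DMSO (log2 −0.34 ± 0.05, edgeR adjusted p = 0.0236). In both genes the groups were well apart. Slfn2 was next by p, at 0.318, 0.315 and 0.171 CPM with INT-777 and 1.48, 0.977 and 0.711 CPM with DMSO (log2 −1.96 ± 0.37, edgeR adjusted p = 0.0555; with the day block 0.000208). Of the 42, 12 (28.6%) differed between days, against 20.5% of all tested genes.

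Among 15 sensing adaptors and kinases, 9 were negative and 6 positive (median log2 fold change −0.06), and 1 was called lower (6.67%, against 0.763% of all tested genes). This was Ikbke, the kinase IKKε that phosphorylates IRF3 and IRF7, with 36.0, 35.9 and 39.1 CPM in INT-777 and 56.5, 54.7 and 53.4 CPM in DMSO (log2 −0.57 ± 0.06, edgeR adjusted p = 0.00733). The INT-777 level was 0.675 of the DMSO level, without overlap. Tlr3, the endosomal receptor for double-stranded RNA, had a log2 fold change of −0.25 ± 0.06 (edgeR adjusted p = 0.109; with the day block 0.00805), and Trim56 of −0.23 ± 0.07 (0.181; with the day block 0.00769). With the block 3 of the 15 were lower and 1 higher, where 10.3% of all tested genes were lower and 11.1% higher.

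The list of 14 inhibitors of interferon signalling was evenly divided, with 7 negative, 7 positive and a median of 0.02. None was called by edgeR without the block. An unadjusted p under 0.05 was reached by 4 of the 14, and by 2621 of all 15998 tested genes. With the block 4 were higher (28.6%, against 11.1% of all tested genes) and 1 lower (7.14%, against 10.3%). Socs3, which blocks JAK signalling, had 15.8, 14.6 and 14.5 CPM with INT-777 and 11.0, 11.8 and 9.08 CPM with DMSO (log2 0.50 ± 0.11, edgeR adjusted p = 0.0815; with the day block 0.000544). Socs1, the main inhibitor of interferon receptor signalling, had 3.54, 4.41 and 4.64 CPM with INT-777 and 2.61, 2.95 and 2.13 CPM with DMSO (log2 0.71 ± 0.17, edgeR adjusted p = 0.112; with the day block 0.00264). Both were higher in every INT-777 library than in any DMSO library. Nlrx1, a mitochondrial protein that restrains MAVS, had a log2 fold change of −0.71 ± 0.18 (edgeR adjusted p = 0.116; with the day block 0.00753).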

How the data were processed

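Bulk RNA of 3 INT-777 and 3 DMSO cultures was read as pairs of 100 nt (BGISEQ-500). Per the submitters' processing notes, the authors used FastQC, STAR 2.73a and edgeR 3.24.3 with the builds GRCm38 and mm10. The gene annotation used for counting was not given in the sources used here. Each deposited file holds 1 library's raw counts of read pairs per gene, without normalisation. The column that ignores strand was used, since the first strand column held 50.1 to 50.6% of pairs. Reads of genes that overlap cannot be separated by strand; 20 of the 48 genes share some exon bases with another gene. Unmapped pairs were 10.3 to 11.3%, multimapping 5.96 to 6.31%, those outside genes 3.32 to 3.83% and those shared by genes 4.35 to 4.54%; these lines stayed out of library sizes. Of 54838 IDs, 54809 matched GENCODE M21 (GRCm38).

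Counts were filtered with filterByExpr, which left 15998 genes, scaled with TMM and compared by the two-sided quasi-likelihood F-test of edgeR 4.0.16 (R 4.3.3, limma 3.58.1), adjusted by Benjamini-Hochberg over all tested genes with a threshold of 0.05. Standard errors are the absolute log2 fold change over the square root of F. FPKM values use exon lengths of GENCODE M21. Per-day log2 ratios have 0.1 CPM added. The comparison was fitted without a day term and, beside it, with the day as a block. Per the labels, INT-777 and DMSO libraries with the same number share a day of sorting. Their deviations from the means of their groups had correlations of 0.329 (day 1), 0.369 (day 2) and 0.632 (day 3). Alternatives were other scaling factors, DESeq2 1.42.0, limma-voom, other filters, another threshold and leaving out libraries and days. The tests were tested on simulated data with 200 changed genes. Without the block, 54% of the genes changed 1.5-fold and 72% of those changed 2-fold were recovered, with 1 false call. With the block, 89% and 98% were recovered, with 22 false calls. The simulated counts took their spread from the fit with the block and gave both groups the same day shifts. This setting suits the block, and cannot show its false calls where the treatment difference varies between days. Figures were drawn with matplotlib 3.10.9 (Python 3.11.15).

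The genes, marker lists and pathway lists were chosen with earlier results of these data known. Full statistics are given for genes past the threshold in either fit and those with an absolute log2 fold change of at least 0.5; of each further pathway list the 3 of smallest p are named, and of the ligands those with read pairs and some without. Lgr5, Gpbar1, Ptprc and Il25 were named as checks.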

Additional observations from a re-analysis of the deposited data

How the results depend on the processing

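The direction of the called genes held and the number of calls did not. The low-count filter was applied anew in each setting, so the genes tested were 48 without a filter, 35 at a mean CPM of at least 1, 42 to 45 on leaving out 1 library, 44 without day 1 or day 2, and 42 in all other settings, and counts and medians are over those. Over 22 alternatives, 783 of 915 fold changes of the 42 genes kept direction and side of the threshold, 100 passed the threshold where they had not, and 7, all of Ddx58, no longer passed it. In 8 genes that were never called, 25 values changed sign. On leaving out 1 library the log2 fold change ran from −0.12 to 0.06 for Mavs, −0.07 to 0.04 for Trim25, −0.07 to 0.01 for Irf2, −0.29 to 0.46 for Usp18, −0.18 to 0.13 for Oasl1, −0.31 to 0.55 for Oas3, −0.15 to 0.01 for Ifit2 and −0.15 to 0.35 for Isg20. Without day 3 it was 0.03 for Mavs, 0.02 for Trim25, −0.31 for Oas3 and −0.02 for Isg20 with or without the block, and for Usp18 −0.12 without and −0.13 with it. Without day 1 it was 0.04 for Oasl1 in both fits and 0.01 for Irf2 with the block, and without day 2 it was 0.01 for Irf2 in both. Ddx58 had a log2 fold change between −0.49 and −0.38 and an adjusted p between 2.78e-08 and 0.541, and on leaving out libraries without the block it passed where DMSO of day 3, or both libraries of day 3, were left out. The median log2 fold change of the genes tested (−0.12 over the 42) was −0.14 with upper-quartile factors or library totals, −0.15 without a filter, −0.19 to −0.11 on leaving out 1 library, −0.10 without day 1 and −0.15 without day 3 (with or without the replicate block). The median of all genes stayed between −0.016 and 0.007.

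Calls of lower and higher genes among those tested (1 and 0 of the 42) became 16 and 1 with the replicate block, 13 and 0 by DESeq2 with the block, 5 and 0 by DESeq2, 3 and 0 without a filter, 4 and 0 at an adjusted p under 0.1, and 2 and 0 with upper-quartile factors. Leaving out 1 library gave 0 to 2 lower. Leaving out both libraries of day 1, 2 or 3 gave 0, 0 and 18 lower and 0, 0 and 2 higher without the block, and 13, 11 and 18 lower and 1, 0 and 2 higher with it. Calls over all genes (122 lower, 110 higher) became 1645 and 1770 with the replicate block, 429 and 369 by DESeq2, 1161 and 1115 by DESeq2 with the block, 249 and 186 without a filter, and 248 and 234 at 0.1. They were 6 to 168 and 2 to 105 on leaving out 1 library. Without day 1, 2 or 3 they were 0, 1 and 2067 lower and 0, 2 and 2225 higher, and with the block 1556, 1163 and 1915 lower and 1691, 777 and 1938 higher. The cause of these shifts was not tested. The count of genes that differ between days (11) was 9 to 12. Counting error limits the 13 genes under 1 CPM most, 6 of which were not tested, and days 1 and 2, being nearly alike, carry less independent information than their number.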
